A study of Drosophila melanogaster with 2 samples.

Results

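A set of 10 genes of the Notch pathway and the Enhancer of split complex was followed through peak lists for the CG12744 protein in Drosophila melanogaster embryos: the receptor N, its ligands Dl and Ser, the inhibitor numb, the nuclear effectors Su(H) and H, and the target genes E(spl)m3-HLH, E(spl)m5-HLH, E(spl)m7-HLH and E(spl)m8-HLH. They are 10 of the 13945 protein-coding genes annotated on the 6 chromosome arms of the lists, and 18164 genes of all kinds are annotated there. The genes were chosen by name, but with earlier results of these data known, so counts over them are descriptive. Every peak whose summit lay inside one of them or within 2000 bp of it was taken as a peak at that gene. All 10 were found in the annotation, where Dl carries the name Delta (FBgn0000463).

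The peaks come from chromatin immunoprecipitation followed by sequencing, with an antibody against green fluorescent protein (GFP). The embryos came from a transgenic fly line that stably expresses CG12744 with GFP fused to its C terminus, were 0 to 24 h old and held both sexes mixed. The samples are 2 biological replicates of this 1 group, given the numbers 2 and 4, and no untreated or untagged group was analysed here. Whole organisms were used, so binding in few cells and weaker binding in many cells cannot be told apart, and neither can the stages within the collection.

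Notch signalling passes between touching cells: a ligand on one cell, Delta or Serrate, binds the Notch receptor on its neighbour, and the receptor is cut so that its inner part enters the nucleus. There it joins Suppressor of Hairless on DNA and switches on target genes, which Hairless otherwise holds off. In the fly embryo the best known targets are the E(spl) repressors, which together with the co-repressor Groucho keep cells from becoming neural precursors, and Numb blocks the receptor in 1 daughter cell of an asymmetric division.

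The 4 peak lists on the genome build dm6 were used. The list of each replicate and the pooled list hold 30000 peaks each. The thresholded list holds 2758 peaks and was made with the irreproducible discovery rate, a measure of how alike peaks rank in replicates. Its peaks are the 2758 highest of the pooled list, so a thresholded peak has the same rank in the pooled list. A place in the thresholded list does not by itself mean that a peak ranked alike in both replicates. Each peak carries the authors' signal value, whose scale is not stated, so the signal is used here only to order peaks within a list, with rank 1 the highest. Thresholded signals started at 68.4 and had a median of 99.1. Read depth is unknown.

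A thresholded summit lay at 5 of the 10 genes, namely N, E(spl)m3-HLH, numb, E(spl)m7-HLH and E(spl)m8-HLH, a share of 50% (exact 95% interval 18.7% to 81.3%), against 25.9% of all protein-coding genes. The 10 genes had 7 such summits in all. The interval holds the share of all genes, but it covers counting error only. No test against the background was made, since the 10 genes were chosen with earlier results of these data known. The genes are also not independent, as 4 lie in the E(spl) complex and E(spl)m8-HLH counted only through summits at its neighbour gro. Within 500 bp of an annotated start site, called a promoter below, the count was 4 of 10, or 40% (exact interval 12.2% to 73.8%), against 14.4% of all protein-coding genes. Those 4 were E(spl)m3-HLH, N, E(spl)m7-HLH and numb. The other 5 genes, Dl, Ser, Su(H), H and E(spl)m5-HLH, had none in the thresholded list.

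Long genes have more room for a summit. Among genes of 20000 bp or longer, 2 of the 4 had a thresholded summit (N and numb, not Dl or Ser), against 45.1% of all such genes. Among shorter genes the count was 3 of 6, against 24.3%. Any of the 30000 pooled summits lay at 9 of the 10 genes, against 76.4% of all protein-coding genes. The windows of the 10 genes, 162716 bp in all, held 4.3 thresholded and 38.7 pooled summits per 100 kb, against 2.49 and 25.9 per 100 kb over the windows of all protein-coding genes. The 4.3 rests on only 7 summits, and those at gro entered through the window of E(spl)m8-HLH. Among the 2758 highest peaks of a single replicate, replicate 2 had a summit at 4 of the 10 genes, against 26.1% of all protein-coding genes, and replicate 4 at 5 of 10, against 25.2%.

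**Figure D1:**
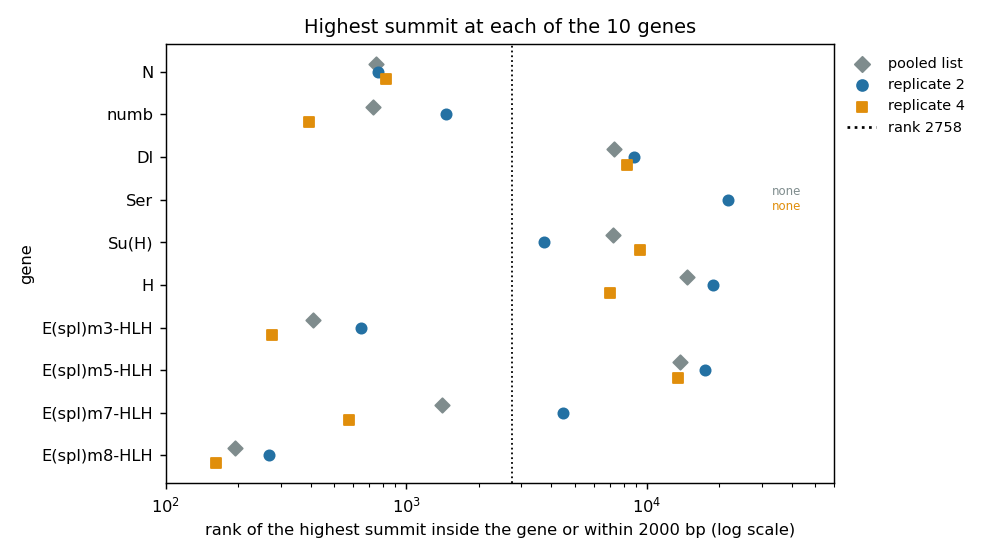
Rank of the highest summit inside each of the 10 genes or within 2000 bp of it, on a log scale, in the pooled list and in replicates 2 and 4; rank 1 is the highest signal and the dotted line marks rank 2758. N, numb, E(spl)m3-HLH and E(spl)m8-HLH lie left of the line in all 3 lists, E(spl)m7-HLH only in the pooled list and replicate 4, and Ser has a single summit, in replicate 2.

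The DNA under the 7 thresholded summits is shown first, because the positions and letters described further on refer to it. Each line runs 5′ to 3′ on the plus strand of the Release 6 (dm6) sequence from NCBI RefSeq and covers 201 bases with the summit at base 101. The last line stops after 178 bases, just before the first transcript start of gro. Capitals mark CACTG, a sequence singled out in an earlier look at these data.
N intron (chrX:3162431-3162631): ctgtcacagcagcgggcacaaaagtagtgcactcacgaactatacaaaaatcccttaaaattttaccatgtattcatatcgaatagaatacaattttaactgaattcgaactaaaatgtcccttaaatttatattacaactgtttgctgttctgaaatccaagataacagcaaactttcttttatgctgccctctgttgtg
N upstream (chrX:3134610-3134810): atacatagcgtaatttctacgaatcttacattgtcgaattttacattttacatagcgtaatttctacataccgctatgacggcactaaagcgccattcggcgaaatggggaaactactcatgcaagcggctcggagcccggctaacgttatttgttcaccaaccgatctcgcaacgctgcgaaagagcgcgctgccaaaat
numb intron (chr2L:9449496-9449696): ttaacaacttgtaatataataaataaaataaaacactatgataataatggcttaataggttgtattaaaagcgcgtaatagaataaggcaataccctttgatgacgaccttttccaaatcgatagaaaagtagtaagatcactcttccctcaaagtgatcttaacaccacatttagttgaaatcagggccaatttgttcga
E(spl)m3-HLH upstream (chr3R:26021322-26021522): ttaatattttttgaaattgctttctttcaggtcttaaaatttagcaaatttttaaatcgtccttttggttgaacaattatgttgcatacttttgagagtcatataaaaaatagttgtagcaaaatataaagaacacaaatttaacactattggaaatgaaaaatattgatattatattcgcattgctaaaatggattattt
E(spl)m7-HLH upstream (chr3R:26036631-26036831): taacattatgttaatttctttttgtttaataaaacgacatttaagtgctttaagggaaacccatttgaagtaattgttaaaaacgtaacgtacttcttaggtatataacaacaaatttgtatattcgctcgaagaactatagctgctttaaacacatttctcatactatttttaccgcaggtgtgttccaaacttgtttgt
gro intron (chr3R:26042366-26042566): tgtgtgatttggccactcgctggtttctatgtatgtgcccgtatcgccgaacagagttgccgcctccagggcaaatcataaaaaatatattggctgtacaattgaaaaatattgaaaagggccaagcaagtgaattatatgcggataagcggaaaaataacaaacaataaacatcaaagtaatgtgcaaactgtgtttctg
gro upstream (chr3R:26041558-26041735): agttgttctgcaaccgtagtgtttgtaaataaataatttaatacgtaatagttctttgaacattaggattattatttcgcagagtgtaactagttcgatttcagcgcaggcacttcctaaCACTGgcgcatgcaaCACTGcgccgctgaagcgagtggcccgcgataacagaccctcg

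N, the receptor (FBgn0004647, chromosome X, 3134870 to 3172221, plus strand), had 2 thresholded summits that lay in unlike places. The higher one, at position 3162531, was in an intron, 27661 bp into the gene. Its signal was 134 at rank 748 of the thresholded list, and it ranked 764 in replicate 2 and 821 in replicate 4. Its interval was 138 bp wide in the thresholded list, but 400 bp in replicate 2 and 404 bp in replicate 4. The nearest annotated start site, that of CG18508, was 10609 bp away. The second, at 3134710, lay in intergenic DNA 160 bp upstream of the only N start site. Its signal was 91.6 at rank 1608, below the median of the list, and it ranked 1231 in replicate 2 and 2512 in replicate 4. So the intronic site was the higher of the pair in the pooled data and in each replicate. N had 15 pooled summits in all. The next one, at rank 3968 with a signal of 56.4, was in the 5′ UTR of CG18508 beyond the 3′ end of N, and the next inside N, at rank 5164 and 2030 bp into the gene, had a signal of 48.7.

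Of the ligand genes, Dl (chromosome 3R, 19302731 to 19326217, minus strand) had 11 pooled summits, none of them in the thresholded list. The highest had a signal of 39.9 at rank 7281 and lay 33 bp downstream of the start site, in the 5′ UTR. A summit also lay near this start in each replicate, at rank 8790 in replicate 2 and at rank 8285 in replicate 4, 41 and 140 bp into the gene. The nearest thresholded summit was 77036 bp from the Dl start.

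Ser, the other ligand gene (FBgn0004197, chromosome 3R, 27172090 to 27194267, minus strand), had no pooled summit and none in replicate 4. Replicate 2 had 1 intronic summit, at rank 21799 with a signal of 12. The pooled list was empty over a stretch of 44.5 kb around the gene, between 27158478 (rank 26585) and 27203011 (rank 24758). Gaps between neighbouring pooled summits had a median of 1.55 kb, and 293 of 29994 gaps, or 0.977%, were at least this long. That is a share of gaps, and long gaps cover more of the genome than short ones, so a larger share of positions lies in them. Among 1013 protein-coding genes of 20000 bp or longer, 93.4% had a pooled summit, as did 3 of the 4 long genes here. The other 67 of the 1013, or 6.61%, had none, and Ser is one of these. The median over such genes was 9 pooled summits, with quartiles of 4 and 17, so N and Dl lay within the quartiles. The numb gene lay above them.

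numb, whose product inhibits the receptor (FBgn0002973, chromosome 2L, 9437469 to 9464184, plus strand), has 2 annotated start sites, and its thresholded summit lay at the inner one. The summit, at 9449596, was 234 bp upstream of the start at 9449830 and within an intron of the longer transcripts, with a signal of 136 at rank 725. It ranked 1466 in replicate 2 and 395 in replicate 4. At the outer start, the pooled summit 99 bp upstream had a signal of 38.6 at rank 7735, with rank 7192 in replicate 2 and 17435 in replicate 4, and was not in the thresholded list. Another summit below the threshold, 1917 bp upstream of the inner start, had a signal of 51.7 at rank 4633. With 18 pooled summits, numb had the most of the 10 genes. The inner start therefore had the higher peak of the pair in the pooled list and in both replicates.

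**Figure D2:**
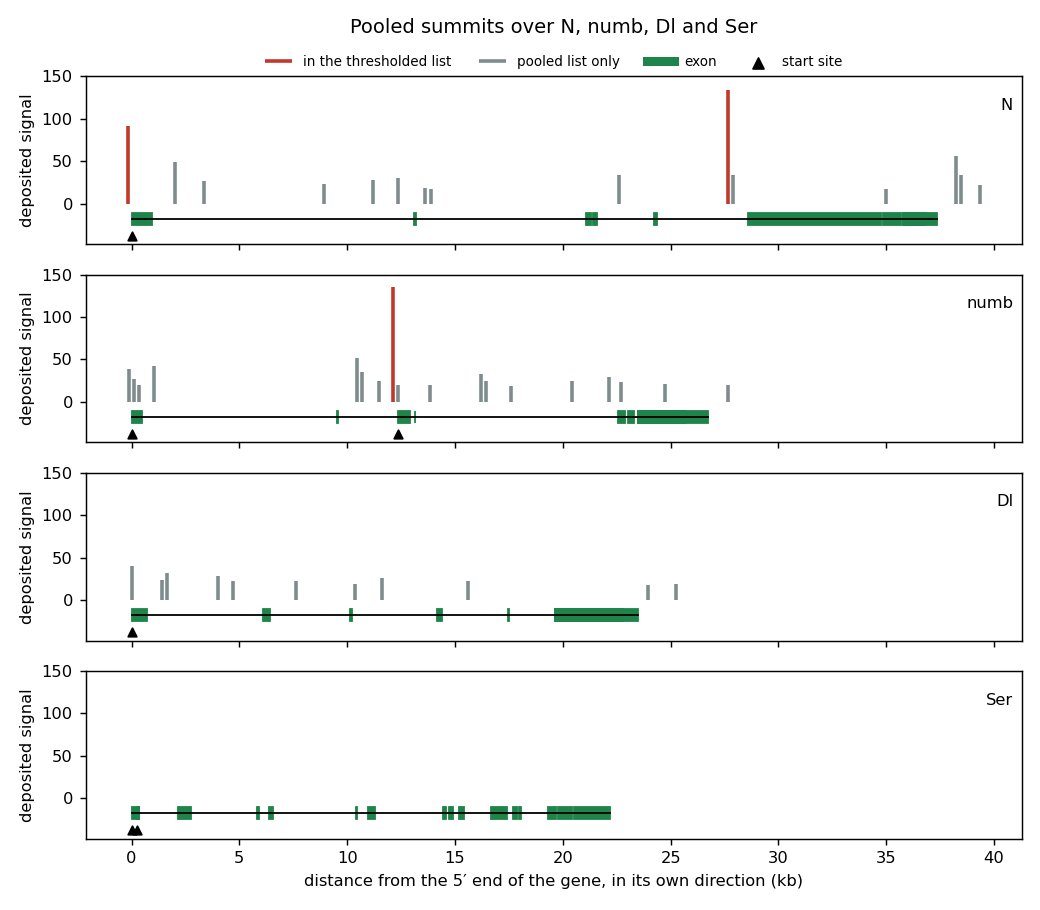
Pooled summits over the 4 long genes, plotted by distance in kb from the 5′ end of each gene, with bar height the authors' signal (scale not stated); red bars are in the thresholded list, green boxes are exons and triangles start sites. N has a red bar just upstream of its start and a higher one far inside, numb has 1 at its inner start, Dl has only bars of 39.9 or lower and Ser has none.

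The genes of the nuclear effectors had no thresholded summit. Su(H) encodes the DNA-binding protein of the pathway (FBgn0004837, chromosome 2L, 15039488 to 15043334, plus strand). Its highest pooled summit, with a signal of 40 at rank 7228, lay 10 bp upstream of the start. In replicate 2 the matching summit stood higher, at rank 3720 with a signal of 34.1, while replicate 4 had no summit within 100 bp. The nearest promoter summit of replicate 4 was 169 bp upstream of the start, at rank 13110. Its highest summit at Su(H), at rank 9359, was 661 bp into the gene, in the coding sequence. H, which encodes the adaptor that brings co-repressors to Su(H) (FBgn0001169, chromosome 3R, 20621938 to 20628915, plus strand), had 3 pooled summits, the highest in its 3′ UTR at rank 14670 with a signal of 26.8. At its start site only replicate 2 had a summit, 78 bp downstream at rank 18763. In replicate 4 its highest summit, at rank 7032, was 4232 bp into the gene, in the coding sequence. The replicates thus differed in where the highest summit of Su(H) and of H lay.

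The E(spl) complex lies on chromosome 3R, where genes for basic helix-loop-helix repressors lie beside genes of the Bearded family, small inhibitors of ligand endocytosis, with gro at one end. The stretch of 56.3 kb from 2000 bp before E(spl)mdelta-HLH to 2000 bp beyond the end of gro held 29 pooled summits, of which 5 were in the thresholded list. In replicate 2 it held 27 summits and in replicate 4 it held 25, with 5 among the 2758 highest in each.

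E(spl)m3-HLH (FBgn0002609, 26021823 to 26023127, plus strand) had the highest promoter peak of the 10 genes, with a signal of 176 at rank 410. The summit, at 26021422, lay in the space between 2 genes transcribed away from each other. It was 401 bp upstream of the E(spl)m3-HLH start and 346 bp upstream of the start of lncRNA:CR43644 on the minus strand, so the nearer start was that of the non-coding RNA. In replicate 4 the summit lay 1 bp away, at rank 275. Replicate 2 had a pair of summits around it. One was 99 bp to the left at rank 646, the other, at 26021531, had rank 1288.

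E(spl)m7-HLH (FBgn0002633, 26037038 to 26038019, plus strand) had a thresholded summit at 26036731, 307 bp upstream of its start, with a signal of 98.3 at rank 1400. Its rank was 4465 in replicate 2, outside the 2758 highest, and 578 in replicate 4, where the summit lay 2 bp away. In replicate 2 the summit lay 82 bp away.

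E(spl)m8-HLH (FBgn0000591, 26040240 to 26041008, plus strand) counted as having thresholded summits only through its neighbour gro. Its own start had no pooled summit within 500 bp, nor did its short body, and the nearest thresholded summit was 1418 bp from that start. The 2 summits within 2000 bp lay beyond its 3′ end, at promoters of gro, which encodes the Groucho co-repressor (FBgn0001139, 26041736 to 26049911, plus strand). The first, at 26041658, was 78 bp upstream of the outermost gro start, with a signal of 119 at rank 965. It ranked 976 in replicate 2 and 1079 in replicate 4. The second, at 26042466, was in a gro intron 175 bp upstream of the inner start at 26042641. Its signal of 241 at rank 194 was the highest at any of the 10 genes, and its ranks were 269 in replicate 2 and 162 in replicate 4.

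E(spl)m5-HLH (FBgn0002631, 26028854 to 26029735, minus strand) had no thresholded summit within 2000 bp, and the nearest lay 6996 bp from its start. Its 4 pooled summits were all outside the gene, the highest with a signal of 27.9 at rank 13687. The one nearest the start was 844 bp upstream, at rank 16204. The remaining bHLH genes of the complex, E(spl)mdelta-HLH, E(spl)mgamma-HLH and E(spl)mbeta-HLH, also had no thresholded summit within 2000 bp. Unlike E(spl)m5-HLH, E(spl)mdelta-HLH had lower promoter summits, at rank 5491 in the pooled list, 8096 in replicate 2 and 3180 in replicate 4. The start of CG43116 was nearer to each of these, at 233, 304 and 171 bp in the same order. A replicate 4 summit at rank 5757 was nearest to the E(spl)mdelta-HLH start, 246 bp upstream of it. E(spl)mbeta-HLH had one at rank 16313 in the pooled list and 12220 in replicate 2, and none in replicate 4. The fifth thresholded summit of the complex, with a signal of 150 at rank 593, was 1792 bp upstream of the start of E(spl)malpha-BFM, a Bearded family gene. It ranked 1015 in replicate 2 and 359 in replicate 4.

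**Figure D3:**
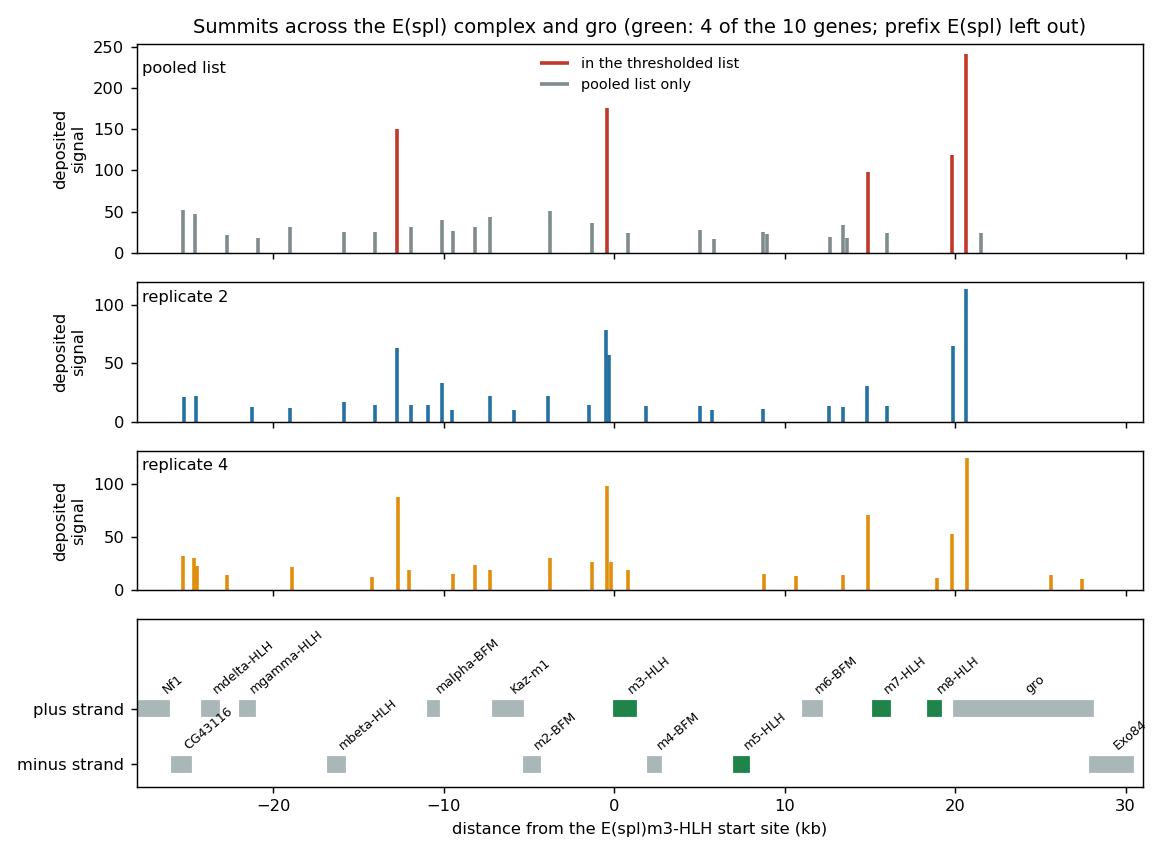
Summits across the E(spl) complex in the pooled list, replicate 2 and replicate 4, with bar height the authors' signal (scale not stated and separate for each list) against distance in kb from the E(spl)m3-HLH start; red bars are in the thresholded list, and green boxes below are 4 of the 10 genes. The red bars stand upstream of malpha-BFM, m3-HLH and m7-HLH and at 2 gro starts, and the bar upstream of m7-HLH is taller relative to its neighbours in replicate 4 than in replicate 2.

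The replicates were compared by rank, since their lists are equally long. Each of the 7 thresholded summits had a summit within 100 bp in both whole replicate lists, against 2604 of 2758, or 94.4%, of all thresholded peaks. In the 2758 highest peaks of both replicates the count was 6 of 7, the exception being E(spl)m7-HLH, against 1773 of 2758, or 64.3%. These shares are not matched for rank. The 7 summits ranked 194 to 1608 in the thresholded list, while the 64.3% also covers peaks down to rank 2758, which more easily drop out. The intronic summit of N ranked most alike, with a ratio of the larger to the smaller replicate rank of 1.07, and 91.5% of all thresholded peaks found in both replicates had a larger ratio. The ratio was 1.11 for the gro upstream summit, 1.66 for the gro intron summit, 2.04 for the N upstream summit and 2.35 for E(spl)m3-HLH. It was 3.71 for numb and 7.72 for E(spl)m7-HLH. Over all thresholded peaks its median was 1.62 and its upper quartile 2.36, and 8.76% had a larger ratio than numb and 1.84% a larger one than E(spl)m7-HLH. Replicate 4 gave the higher rank at numb, E(spl)m3-HLH, E(spl)m7-HLH and the gro intron, and replicate 2 at both N summits and the gro upstream summit.

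**Figure D4:**
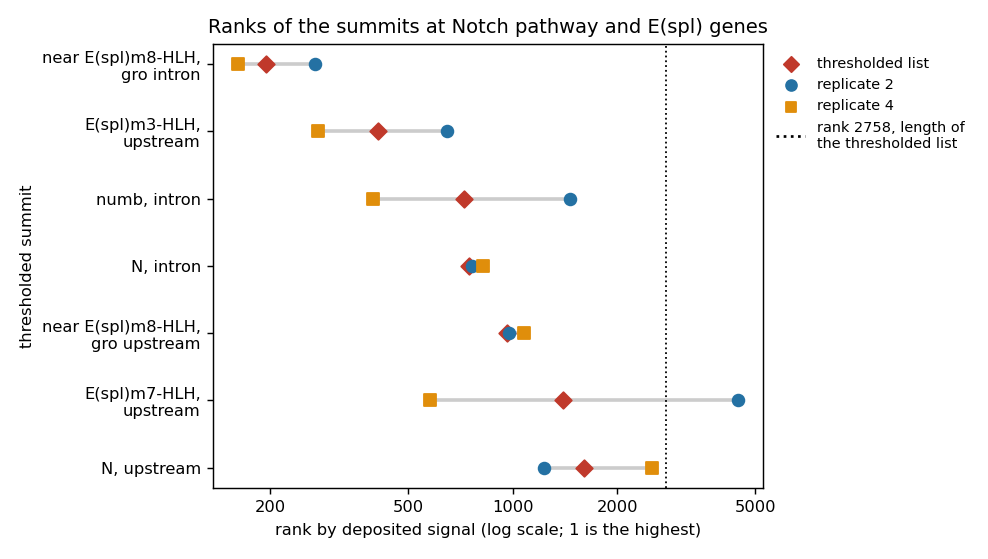
Ranks by the authors' signal of the 7 thresholded summits at the 10 genes, on a log scale, in the thresholded list and in replicates 2 and 4; grey lines join the ranks of 1 summit and the dotted line marks rank 2758. The summit upstream of E(spl)m7-HLH spans 578 to 4465, the widest of the 7, and the N intron summit 748 to 821.

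The promoter summits of N, numb, E(spl)m7-HLH and E(spl)m3-HLH all lay farther upstream of their starts than the median thresholded promoter summit. Their positions were 160 bp upstream of the start for N, 234 bp for the inner numb start, 307 bp for E(spl)m7-HLH and 401 bp for E(spl)m3-HLH. Over the 1596 thresholded summits within 500 bp of a start, 57.9% of the list, the median position was −88 bp, that is upstream. Of these, 29.8% lay 150 bp or more upstream, as all 4 here did, and 9.46% lay 300 bp or more upstream, as 2 of the 4 did. The 1596 positions were measured from the nearest start, but that of E(spl)m3-HLH from its own. From its nearest start, that of lncRNA:CR43644, the summit was 346 bp upstream. The limits of 150 and 300 bp lie just short of the positions for N and E(spl)m7-HLH. The 2 gro summits, 78 and 175 bp upstream, are not among the 4, and the first lay closer to its start than the median. No test was made on 4 positions.

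**Figure D5:**
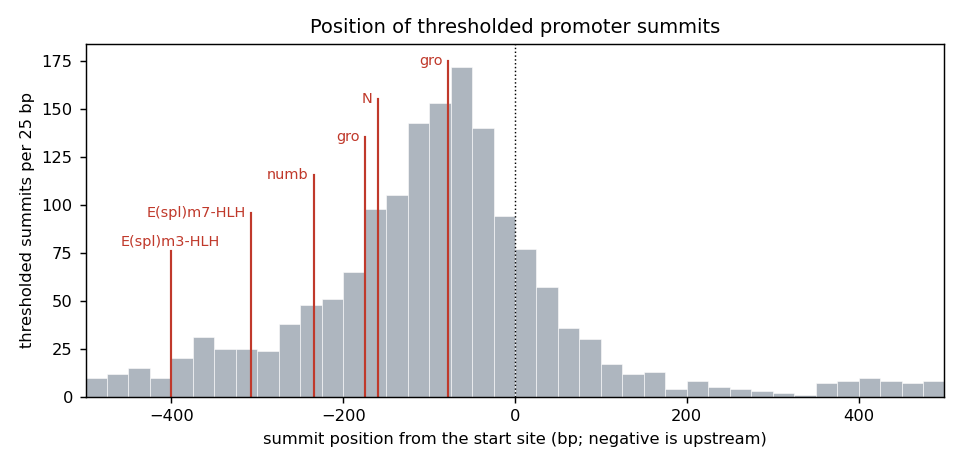
Histogram of the position of 1596 thresholded promoter summits from the nearest start site, in bins of 25 bp along the x axis (negative is upstream) with the number of summits on the y axis; red lines mark summits at the 10 genes, measured from the named gene's start. The grey bars are tallest just upstream of 0, and the lines for N, numb, E(spl)m7-HLH and E(spl)m3-HLH lie 160 to 401 bp upstream, while the 2 gro lines lie at 78 and 175 bp.

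The base composition under the summits varied widely. The GC content within 100 bp of the summit was 22.9% at E(spl)m3-HLH, 29.4% at E(spl)m7-HLH, 31.3% at numb, 34.3% at the N intron, 39.3% at the gro intron, 44.8% at gro upstream and 45.8% at N upstream. Over all thresholded summits the median was 36.3%, with quartiles of 32.3% and 41.3%. The summits of E(spl)m3-HLH, E(spl)m7-HLH and numb lay below the lower quartile, and those upstream of N and gro above the upper one.

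Motifs were searched by their letters on both strands within 100 bp of each summit. The Su(H) site, taken as CGTGGGAA, TGTGGGAA, CGTGAGAA or TGTGAGAA, was at 0 of the 7 summits, against 2.1% of all thresholded summits and 2.62% of windows of 250 bp upstream of protein-coding starts. The E-box CANNTG, the core bound by many bHLH proteins, was at 3 of 7 (the N intron, E(spl)m7-HLH and the gro intron), against 61.4% and 69.6%. The N-box CACNAG, bound by E(spl) repressors, was at 0 of 7, against 21.4% and 24.8%. The site of the promoter factor Dref, TATCGATA, was at 0 of 7, against 4.6% and 6.91%. The GAGAG element of the GAGA factor was at 1 of 7, 3 to 7 bp left of the E(spl)m3-HLH summit, against 23.9% and 29.1%. CACTG was at 1 of 7, against 48.3% and 38.7%. Both of its copies were upstream of gro, the nearer 20 bp to the right of the summit, as the capitals in the sequence show. A window without a match says only that these letters are not in it. By their letters the Su(H) site, N-box, E-box, GAGAG and CACTG can overlap one another in any pair but the E-box with CACTG, and the Dref site can overlap none of them.

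Because the Su(H) site is the DNA element through which Notch acts on the E(spl) genes, it was also searched over 1000 bp upstream of each start. No match was found upstream of N, numb, Dl, Ser or E(spl)m3-HLH, 1 upstream of Su(H), 1 upstream of H, 3 upstream of E(spl)m7-HLH, 3 upstream of E(spl)m8-HLH and 4 upstream of E(spl)m5-HLH. At least 1 match was found upstream of 10.2% of 19607 protein-coding start sites, and 3 or more upstream of 10 of them, or 0.051%. In E(spl)m7-HLH and E(spl)m8-HLH a pair of sites faces each other with 17 bases between them. The same arrangement was found upstream of 4 of the 19607 starts, and the other 2 belong to E(spl)m4-BFM and E(spl)mgamma-HLH, also of the complex. The pairs are shown 5′ to 3′ in the direction of each gene, so on the minus strand for E(spl)m5-HLH, from Release 6 (dm6) of NCBI RefSeq, with the Su(H) sites in capitals and 30 bases to either side.
E(spl)m5-HLH upstream pair (chr3R:26030567-26030664): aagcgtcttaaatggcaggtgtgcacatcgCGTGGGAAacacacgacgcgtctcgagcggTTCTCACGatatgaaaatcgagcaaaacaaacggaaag
E(spl)m7-HLH upstream pair (chr3R:26036339-26036431): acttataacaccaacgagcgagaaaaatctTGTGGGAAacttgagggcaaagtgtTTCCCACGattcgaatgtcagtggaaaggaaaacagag
E(spl)m8-HLH upstream pair (chr3R:26039986-26040078): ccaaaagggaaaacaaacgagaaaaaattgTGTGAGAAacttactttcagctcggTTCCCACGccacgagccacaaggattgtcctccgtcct

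The thresholded summits did not lie on these sites. At E(spl)m7-HLH the pair begins 669 bp upstream of the start, and its sites were 362 and 337 bp from the summit, which lies nearer to the start. At E(spl)m8-HLH the pair begins 224 bp upstream, and its sites were 1642 and 1617 bp from the nearest thresholded summit, at gro. At E(spl)m5-HLH the outer pair has 22 bases between its sites, which were 6097 and 6127 bp from the nearest thresholded summit. Lower summits did lie in or near this pair, all far below the threshold. The pooled summit 844 bp upstream of the start, at rank 16204, and the replicate 2 summit 809 bp upstream, at rank 26397, lay between the pair and the start, and the replicate 4 summit 875 bp upstream, at rank 13479, lay between the sites. E(spl)m3-HLH, with the highest promoter peak, had no match within 1000 bp upstream.

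Across the wider pathway, 43 other genes of the pathway and the complex were looked up. A thresholded summit lay within 2000 bp of 13 of them, or 30.2%, against 25.9% of all protein-coding genes, and in a promoter of 7, or 16.3%, against 14.4%. These shares are close to those of all genes. gro is among the 13, through the same summits that made E(spl)m8-HLH count above, so those summits enter both counts. The highest promoter peak was at lgd (l(2)gd1 in the annotation), which encodes a regulator of receptor trafficking, with a signal of 341 at rank 87, 78 bp upstream of its start. It ranked 89 in replicate 2 and 86 in replicate 4. AP-2alpha, a subunit of the clathrin adaptor, had a signal of 202 at rank 286, although the start of ebi was nearer to that summit. It ranked 334 in replicate 2 and 318 in replicate 4. rumi, which encodes the glucosyltransferase of the receptor, had a signal of 159 at rank 519, with ranks of 542 in replicate 2 and 520 in replicate 4.

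Of the 6 receptor cleavage genes, 2 had a thresholded promoter summit, aph-1 and kuz. aph-1, a gamma-secretase subunit, had a signal of 80 at rank 2054, with ranks of 1892 in replicate 2 and 1782 in replicate 4. kuz, the metalloprotease that first cuts the receptor, had a signal of 69.8 at rank 2657, near the end of the list, with ranks of 1807 in replicate 2 and 7313 in replicate 4. neur, a ubiquitin ligase for Delta, had a promoter summit with a signal of 71.1 at rank 2567 that had no summit within 100 bp in replicate 4. The seventh was gro, described above.

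Counted by role, a thresholded summit within 2000 bp was found at 3 of 3 other nuclear effectors and co-repressors (mam, gro and CtBP), against 25.9% of all protein-coding genes, and at 1 of 3 receptor glycosylation genes, 3 of 6 receptor cleavage genes, 2 of 3 genes of ligand endocytosis and 3 of 7 genes of receptor trafficking or asymmetric division. The genes followed above are left out of these counts. Su(H) and H, also nuclear effectors, had no such summit, so the full count for that role is lower. Of the left-out genes in other roles, numb, E(spl)m3-HLH, E(spl)m7-HLH and E(spl)m8-HLH had such a summit and E(spl)m5-HLH had none. mam is a gene of 69154 bp, and of genes of 20000 bp or longer 45.1% had such a summit. CtBP counted through a summit near the end of the list, at rank 2695 with a signal of 69.2. It ranked 6958 in replicate 2 and 1291 in replicate 4. The summit of mib1, a gene of ligand endocytosis, ranked 1647 and had no summit within 100 bp in replicate 4. At the highest summits of mam, nct, mib1, dx and AP-2alpha, the start site of another gene was nearer (CG18371, CG7006, hzg, RpL7A and ebi in that order). A summit was found at 1 of 8 Bearded family genes, and at 0 of 3 other E(spl) bHLH genes, 0 of 3 other Hairy-type repressor genes (h, dpn and Hey) and 0 of 6 proneural genes (ac, sc, l(1)sc, ase, ato and amos). Of the proneural genes, whose products the E(spl) repressors oppose, only amos had any pooled summit within 2000 bp, at rank 17969, against the 76.4% of all protein-coding genes with one. That share covers genes of every length, while the 6 proneural genes are 786 to 2430 bp long. No pooled share was computed for short genes. The lists are short and were chosen with results of these data known, so the counts are descriptive.

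The genes whose promoter peaks ranked most like that of E(spl)m3-HLH were found by the sum of the rank differences over the thresholded list and both replicates, among 1885 genes. They were Ptp4E and fkh, each with a sum of 77, then Dic1 and Elp6, which share 1 peak, with a sum of 86. Ptp4E ranked 396 in the thresholded list, 585 in replicate 2 and 273 in replicate 4, and fkh ranked 416, 707 and 265 in the same order.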

How the data were processed

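Peaks came from chromatin immunoprecipitation sequencing of 2 biological replicates of 1 group. The authors deposited narrowPeak lists with a signal per peak, and per the deposited text records the pooled and replicate lists were called against a control and the thresholded list was made from them by the irreproducible discovery rate. Neither the peak caller and aligner nor the scale of the signal is given in the sources used here. Read depth is unknown from these files.

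The 4 dm6 lists were used, with the Ensembl release 115 annotation and the NCBI RefSeq Release 6 sequence. The dm3 lists were not used, since no dm3 annotation or sequence was used here. Transposable elements were left out, every annotated transcript start counted as a start site, and coordinates are 1-based. A summit was matched between lists within 100 bp. Shares have exact 95% Clopper-Pearson intervals, which cover counting error only. No p-values were computed, since there is 1 group and the genes are not a sample of genes. The counting steps were tested on simulated data. Python 3.11.15, matplotlib 3.10.9 and scipy 1.17.1 were used.

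The 10 genes, the pathway lists and the motifs were chosen with earlier results of these data known. The genes named are the 10, those with the start nearest to one of their thresholded summits, listed pathway genes with a thresholded promoter summit, and the 3 whose promoter peak ranked most like the highest of the 10. A tie added another gene, and other pathway genes are named by role after their values were seen. Alternatives were other distances and windows, the 1379 highest peaks, each replicate alone, other rules for shared summits and start sites, and all genes as background.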

Additional observations from a re-analysis of the deposited data

How the results depend on the processing

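Of 39 alternative values, 32 were within 1.5 times of the reported one and 7 were not. Counting only summits inside a gene left 2 genes and 2 summits, in N and numb, against the 5 genes and 7 summits within 2000 bp. A promoter of 250 bp left 2 genes in place of 4, N and numb, because the summits of E(spl)m7-HLH and E(spl)m3-HLH lie farther upstream, and the 1379 peaks with the highest signal also left 2, numb and E(spl)m3-HLH. Widening the motif window to 150 bp gave the N-box at 1 summit in place of 0, GAGAG at 2 in place of 1 and CACTG at 4 in place of 1.

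With a single replicate, the count of genes within 2000 bp was 4 to 5, that of genes with a promoter summit 3 to 4 and that of summits 7 to 7. The 7 were not the same summits: E(spl)m7-HLH was the gene lost without replicate 4, where replicate 2 had 2 summits at E(spl)m3-HLH in place of 1. With summits matched within 50 bp, 5 of the 7 were shared by both replicates. No paired analysis was possible because there is only 1 group. The exact intervals over 10 genes are wide and cover counting error only, and the genes are neither independent nor a sample of genes. There were only 2 replicates, and the absence of a gene from the thresholded list does not show that the protein was not there.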
